A study of Mus musculus with 37 samples.

Results

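The pyruvate dehydrogenase complex sits in the mitochondrion and turns pyruvate, the end product of glycolysis, into acetyl-CoA. Its E1 component is built from the alpha subunit Pdha1 and the beta subunit Pdhb. Pyruvate dehydrogenase kinases (Pdk1, Pdk2, Pdk3 and Pdk4) phosphorylate Pdha1 and switch the complex off, and pyruvate dehydrogenase phosphatases (Pdp1 and Pdp2) remove the phosphate and switch it back on. In liver, Pdk2 is the kinase present at rest, and Pdk4 is the isoform known to rise when fatty acids are the main fuel, in fasting and with activators of the receptor PPARα. These 8 genes were read in the livers of male and female mice given HFPO-DA, a short-chain per- and polyfluoroalkyl compound. They were chosen by gene symbol and make up 8 of 21450 symbols, or 9 of 30146 probes, since Pdha1 had 2 probes and each other gene 1.

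The mice were wild-type CD1 (Crl:CD1(ICR)) adults gavaged every day with vehicle (0 mg/kg) or with HFPO-DA at 0.1, at 0.5 or at 5 mg/kg. Males were 6 weeks old at the first dose and took 84 to 85 doses, over 70 days before mating and 14 days of mating. Females were 11 weeks old and took 53 to 65 doses, from 14 days before mating until day 20 or 21 of lactation. Sex, lactation, age and length of dosing therefore cannot be told apart in these data. From vehicle to the highest dose there were 5, 5, 5 and 4 male mice and 5, 5, 4 and 4 female mice, and mice are numbered within a group only to name them. RNA was read from formalin-fixed, paraffin-embedded liver sections with TempO-Seq, in which a pair of detector oligos per target is ligated on the RNA and counted by sequencing.

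Values are given as CPM, the counts of a probe scaled to one common library total with the TMM factors of edgeR, and changes as log2 fold changes from the quasi-likelihood test of edgeR, with p-values adjusted by Benjamini and Hochberg's method across the 18570 probes tested. A probe was called where its adjusted p was below 0.1. A TempO-Seq probe reads 1 short stretch of a transcript, so CPM can be compared between mice for 1 probe but not between genes. Total counts ran from 2101495 to 10548222 in males and from 7952605 to 13878254 in females, and 4 males had fewer than 5000000. All 9 probes passed the filter on low counts. The probes of Pdk1, Pdk2, Pdp2, Pdha1 and Pdhb lay above the filter's limit of 1.045 CPM in all 37 mice, that of Pdk4 in 22, that of Pdk3 in 18 and that of Pdp1 in only 4. Hepatocyte markers (4 of the 5 listed had a probe) summed to between 10100 and 22000 CPM in every mouse of this tissue labelled liver. In a bulk liver section, fewer cells of a type and less RNA per cell cannot be told apart.

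Pdk4 lies on chromosome 6 (GRCm38, chr6:5483351-5496309, minus strand) and Pdk2 on chromosome 11 (chr11:95026258-95041354, minus strand). The stretches just before their annotated starts are shown because these are the kinase that changed with dose and the main resting kinase of liver. They are chr6:5496310-5496528 for Pdk4 (219 bases) and chr11:95041372-95041621 for Pdk2 (250 bases), both from RefSeq's GRCm38.p6, and capitals mark CCAAT or its reverse complement.
Pdk4: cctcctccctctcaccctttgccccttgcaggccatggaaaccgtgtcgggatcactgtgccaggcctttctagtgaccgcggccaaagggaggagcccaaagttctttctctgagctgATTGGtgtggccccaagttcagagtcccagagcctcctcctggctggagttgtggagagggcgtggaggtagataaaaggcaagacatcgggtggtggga
Pdk2: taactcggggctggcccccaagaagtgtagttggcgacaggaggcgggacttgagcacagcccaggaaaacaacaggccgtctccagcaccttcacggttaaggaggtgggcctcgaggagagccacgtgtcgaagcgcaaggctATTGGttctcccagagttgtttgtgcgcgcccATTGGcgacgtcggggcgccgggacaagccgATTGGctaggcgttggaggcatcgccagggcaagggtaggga
The Pdk4 stretch held 1 such site and 6 CG pairs, and the Pdk2 stretch held 3 sites and 19 CG pairs. CCAAT on either strand occurred in 33.8% of all 32851 RefSeq windows of 250 bases before a start. The hexamer AGGTCA, and the direct repeat of it with 1 base between the copies, which is the element bound by PPARα with RXRα, were also searched on both strands in the windows of the 7 members with an entry. Neither was found in any of their 9 windows, against 14% and 0.0335% of all windows. This says only that these letters are not in those windows.

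Pdk4 was the member that changed with HFPO-DA, in both sexes and at 5 mg/kg. In the 5 control males, Pdk4 read 0, 0, 0, 1.32 and 2.41 CPM, and in the 4 males at 5 mg/kg it read 25, 26.4, 32.6 and 42.2 CPM. Every high-dose male lay far above every control, and the groups did not overlap. The difference was 5.37 on the log2 scale (SE 1.07, 95% interval 3.20 to 7.54, edgeR adjusted p = 0.00059), a 41.3-fold rise whose interval ran from 9.18 to 186-fold, and 3 of the controls had no Pdk4 count at all.

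In the 5 control females, Pdk4 read 0, 0.0833, 0.314, 1.02 and 2.53 CPM, and in the 4 females at 5 mg/kg it read 7.83, 14.2, 16.5 and 70.1 CPM. The groups again did not overlap, but 1 female stood far above the other 3. The difference was 5.08 (SE 1.05, 95% interval 2.96 to 7.20, edgeR adjusted p = 0.00134). Without that female it was 4.00 and still called (adjusted p = 0.0298). 1 member probe of 9 was thus called in each sex, where 12.7% (males) and 4.52% (females) of all probes were called. The change of Pdk4 did not differ detectably between the sexes (interaction 0.29, 95% interval from -2.50 to 3.07, edgeR adjusted p = 1). That interval is wide enough to hold a several-fold difference either way.

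**Figure D1:**
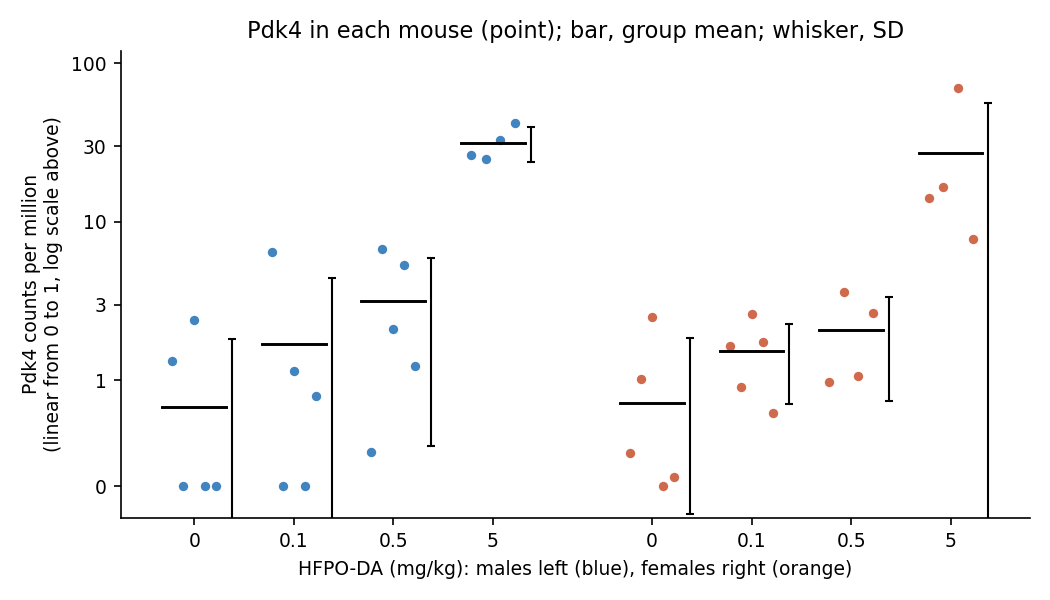
Pdk4 in CPM (vertical axis, linear from 0 to 1 and logarithmic above) in each of the 37 mice by dose of HFPO-DA, males in blue and females in orange, with a bar at the group mean and a whisker of 1 SD that is cut off where it would pass below the axis. The 4 males at 5 mg/kg lie between 25 and 42.2 CPM and the 4 females between 7.83 and 70.1 CPM, above all mice of their sex at lower doses.

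At the lower doses Pdk4 stayed close to the limit of counting. At 0.5 mg/kg the 5 males read 0.322, 1.23, 2.1, 5.34 and 6.79 CPM, which overlapped the controls (log2 difference 2, SE 0.98, edgeR adjusted p = 0.477). The 4 females at 0.5 mg/kg read 0.983, 1.07, 2.64 and 3.60 CPM, again overlapping their controls (1.37, SE 0.98, edgeR adjusted p = 1). These readings rest on 2 to 52 counts a mouse, and the 95% intervals of the fold ran from 1.02 to 15.8 in males and from 0.655 to 10.2 in females. At 0.1 mg/kg the differences were 1.21 (SE 0.97) in males and 0.94 (SE 0.94) in females, both with an edgeR adjusted p of 1. The value in males turned to -0.44 without the 1 male that read 6.46 CPM.

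No member probe was called at 0.1 or 0.5 mg/kg in either sex. DESeq2 called none of those it gave an adjusted p, which leaves out Pdp1 in males at both doses and Pdk4, Pdk3 and Pdp1 in females at 0.5 mg/kg. An edgeR p below 0.05 before adjustment was reached only by Pdk4 in males at 0.5 mg/kg, 1 of 9, and by 0 in the other 3 comparisons. Over all probes, 10.3% reached it in males at 0.5 mg/kg, so 1 of 9 is near the background, and 2.38% to 7.14% did in the other 3. The share of all probes called after adjustment was 0 in both sexes at 0.1 mg/kg, and at 0.5 mg/kg it was 0.625% in males and 0.113% in females. The step between the upper doses was called for Pdk4, by 3.36 in males (SE 0.98, edgeR adjusted p = 0.0345, 8.73% of all probes called) and by 3.71 in females (SE 1.07, edgeR adjusted p = 0.0847, 1.48% called). In males the call was lost where the sexes were fitted apart, at a similar size (3.32, adjusted p = 0.12). In females the call was lost without any 1 of 7 of the 8 mice compared, with adjusted p from 0.105 to 0.61. The highest of these came without the female at 70.1 CPM, where the difference was 2.63, and in the other 6 it stayed between 3.48 and 4.10.

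The lowest high-dose Pdk4 readings were 87 counts in males and 92 in females, against at most 18 and 27 in controls. The high-dose values themselves thus lie above counting noise. The male with the most Pdk4 had 273 counts and the female with the most had 798. That female also had the highest muscle marker sum of its group (47.1 CPM over 4 genes, against a group median of 8.96) and the highest stellate cell marker sum (533 CPM over 5 genes, against a group median of 295). Muscle and fat tissue also express Pdk4, and the part of other cells in this reading was not tested. Muscle marker sums ran from 2.21 to 19.1 CPM in high-dose males and from 7.09 to 46.2 CPM in control males, and from 6.77 to 47.1 CPM in high-dose and 5.41 to 41.2 CPM in control females. The 4 adipocyte markers (Adipoq, Plin1, Lep and Cfd) were at 0 in every high-dose male and summed to at most 3.23 CPM in any mouse. Stellate marker sums had a median of 251 CPM in high-dose males against 145 CPM in control males, and of 295 against 164 CPM in females, with 0 of the 5 genes called in either sex by edgeR. Hepatocyte marker sums at 5 mg/kg had lower medians than in controls, 12000 against 15500 CPM in males and 15300 against 21100 CPM in females. Of the 4 tested genes, Serpina1a was called lower in both sexes (-1.98 and -1.10) and Ttr in females (-0.69), and of 5 endothelial genes Kdr was called lower in males (-0.95, adjusted p = 0.0708). Over all probes, edgeR called 8.49% lower and 4.21% higher in males, and 2.26% each way in females. Kupffer and immune marker sums had a median of 123 CPM in high-dose males against 79.3 CPM in control males. In females the medians were 176 against 148 CPM, and 0 of the 7 genes were called in either sex. The part of these cell types in the result was not tested.

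Pdk2, the kinase that dominates in resting liver, was read in every mouse at 27.4 to 137 CPM and was not called against vehicle with all mice in the fit. In control males it read 51.6, 77.3, 80.0, 93.4 and 94.5 CPM, and at 5 mg/kg 27.4, 61.2, 63.4 and 67.3 CPM. The ranges overlapped through 1 control at 51.6 CPM. The log2 difference was -0.53 (SE 0.23, edgeR adjusted p = 0.154, below 0.05 before adjustment as for 23.3% of all probes), with a fold between 0.503 and 0.958. It passed the threshold without that control (-0.65, adjusted p = 0.0843) or without high-dose male 2 (-0.67, adjusted p = 0.0931). The lowest reading, 27.4 CPM, came from the high-dose male of lowest depth, with 2101495 counts in all and 73 for Pdk2.

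Control females read 71.2, 96.6, 101, 109 and 133 CPM for Pdk2, and females at 5 mg/kg 87.6, 102, 110 and 137 CPM. The groups lay over each other (log2 difference 0.10, SE 0.23, edgeR adjusted p = 1), and the 95% interval of the fold, 0.779 to 1.46, holds changes in both directions. The difference between the sexes in this change was -0.62 (SE 0.32, edgeR adjusted p = 0.493). Between the 2 upper doses in males, Pdk2 was lower by 0.63 at 5 mg/kg and missed the threshold (edgeR adjusted p = 0.102), and DESeq2 called it. An antisense gene, Gm11513, overlaps Pdk2 on the other strand. The strand and position of the probe are not given in the sources used here.

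Because both kinases were read in the same library, Pdk4 counts can be set against Pdk2 counts mouse by mouse, as a ratio of 2 probes and not of 2 amounts of mRNA. In control livers Pdk4 gave a median of 0% (males) and 0.311% (females) of the Pdk2 counts. At 5 mg/kg the median was 55.3% in males (37.2 to 119%) and 15.9% in females (5.70 to 68.8%), and no high-dose mouse overlapped any other group of its sex. In males Pdk4 was called higher at 5 mg/kg. Pdk2 had a lower mean there, with overlapping ranges and no call (edgeR adjusted p = 0.154), and its part in the ratio was not tested.

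Pdk1 (chr2:71873224-71903858, plus strand), the kinase best known as a target of hypoxia signalling, leaned in opposite directions in the sexes. Control males read 21.1, 24.6, 24.9, 25.4 and 30.4 CPM and males at 5 mg/kg 11.6, 16.5, 21.8 and 23 CPM, which overlapped (-0.46, SE 0.27, edgeR adjusted p = 0.313). Control females read 20.0, 24.2, 30.3, 33.5 and 37 CPM and females at 5 mg/kg 32.4, 39.0, 42.1 and 42.2 CPM, which also overlapped (0.42, SE 0.26, edgeR adjusted p = 0.631). At 0.5 mg/kg the 4 females, at 39.9 to 43.8 CPM, all lay above their controls (0.52, SE 0.26, edgeR adjusted p = 1). The interaction at 5 mg/kg was -0.89 (SE 0.38). Its edgeR p was below 0.05 before adjustment and not after it (adjusted p = 0.393).

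No member was called in the interactions, which called 0.63% of all probes at 5 mg/kg and 0.0108% at the dose below. Before adjustment, edgeR gave 1 of the 9 probes a p below 0.05 at each dose, Pdk1 at 5 mg/kg and the barely counted Pdp1 at 0.5 mg/kg, and DESeq2 called 0, with no adjusted p for Pdp1 at 5 mg/kg. Over all probes that share was 10.7% at 5 mg/kg and 5.13% at the dose below, so 1 of 9 is near the background. Control males and control females did not differ detectably in any of the 9 probes by edgeR, with 0 below 0.05 before adjustment, while 2.6% of all probes were called between them. DESeq2 called 0 of the 7 it gave an adjusted p, which leaves out Pdk3 and Pdp1.

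Pdk3 (chrX:93764607-93832201, minus strand), an isoform mostly of other tissues, was close to unread in liver. It gave 332 counts over all 37 mice, 13 mice had none, and the most in any mouse was 29. Among the 4 males at 5 mg/kg, 3 had no Pdk3 count and the other had 28. No fold change is given at this depth.

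Neither phosphatase was called in any comparison with vehicle. Pdp2 (chr8:104591451-104599026, plus strand), the phosphatase of liver and fat, read 48.6, 49.8, 50.7, 50.7 and 54.4 CPM in control males and 35.8, 38.6, 55.5 and 64.7 CPM in males at 5 mg/kg. The high-dose males lay on both sides of the narrow control range, with a log2 difference of -0.06 (SE 0.30, edgeR adjusted p = 0.947) that became 0.04 with the size factors of DESeq2. Control females read 37.5, 39.3, 44.5, 47.4 and 64.2 CPM and females at 5 mg/kg 54.4, 63.1, 64.2 and 73.3 CPM. Their ranges overlapped through 1 control, and the difference of 0.45 (SE 0.30, fold between 0.902 and 2.08, edgeR adjusted p = 0.684) did not pass.

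Pdp1 (chr4:11958184-11966452, minus strand), the calcium-stimulated phosphatase known best from muscle, gave 102 counts over all mice. It was at 0 in 27 of them, including all 4 males at 5 mg/kg and all 5 males at 0.1 mg/kg. The highest reading, 23 counts, came from a male at 0.5 mg/kg. It passed the filter with exactly 4 mice above the limit, and no fold is given.

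Both E1 genes were well read and neither was called. Pdha1 (chrX:160122209-160138413, minus strand), the subunit that the kinases phosphorylate, was read by 2 probes that did not lean the same way in males. With probe Pdha1_70797, control males read 67.6, 68.5, 74.1, 94.0 and 116 CPM and males at 5 mg/kg 62.6, 80.4, 122 and 147 CPM (0.30, SE 0.19, edgeR adjusted p = 0.369). With probe Pdha1_29563, control males read 42.7, 44.0, 45.3, 65.1 and 83.1 CPM and males at 5 mg/kg 6.75, 49.3, 50.2 and 68.4 CPM (-0.34, SE 0.31, edgeR adjusted p = 0.576). The reading of 6.75 CPM is 18 counts in the male of lowest depth, in which the other Pdha1 probe gave 62.6 CPM.

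The values of Pdha1 in males differed with and without such shallow libraries. Without the 4 males under 5000000 counts, which leaves 2 high-dose males, those at 122 and 147 CPM, Pdha1_70797 was called at 0.64 (adjusted p = 0.0545) and Pdha1_29563 was at 0.03 (adjusted p = 1). In females the 2 probes gave 0.15 (SE 0.19) and 0.19 (SE 0.31), with edgeR adjusted p of 0.983 and 1. Map3k15 overlaps Pdha1 on the other strand.

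Pdhb (chr14:8165996-8173025, minus strand) read 27.2, 39.7, 52.2, 52.4 and 60.6 CPM in control males and 22.3, 30.8, 37.7 and 38.3 CPM in males at 5 mg/kg. Only 1 control lay within the high-dose range, and the difference was -0.53 (SE 0.26, fold between 0.481 and 1, edgeR adjusted p = 0.221). In females the means were 42.8 ± 7.1 CPM (SD, n = 5) and 43.2 ± 7.0 CPM (SD, n = 4), with a difference of 0.01 (SE 0.26, edgeR adjusted p = 1).

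**Figure D2:**
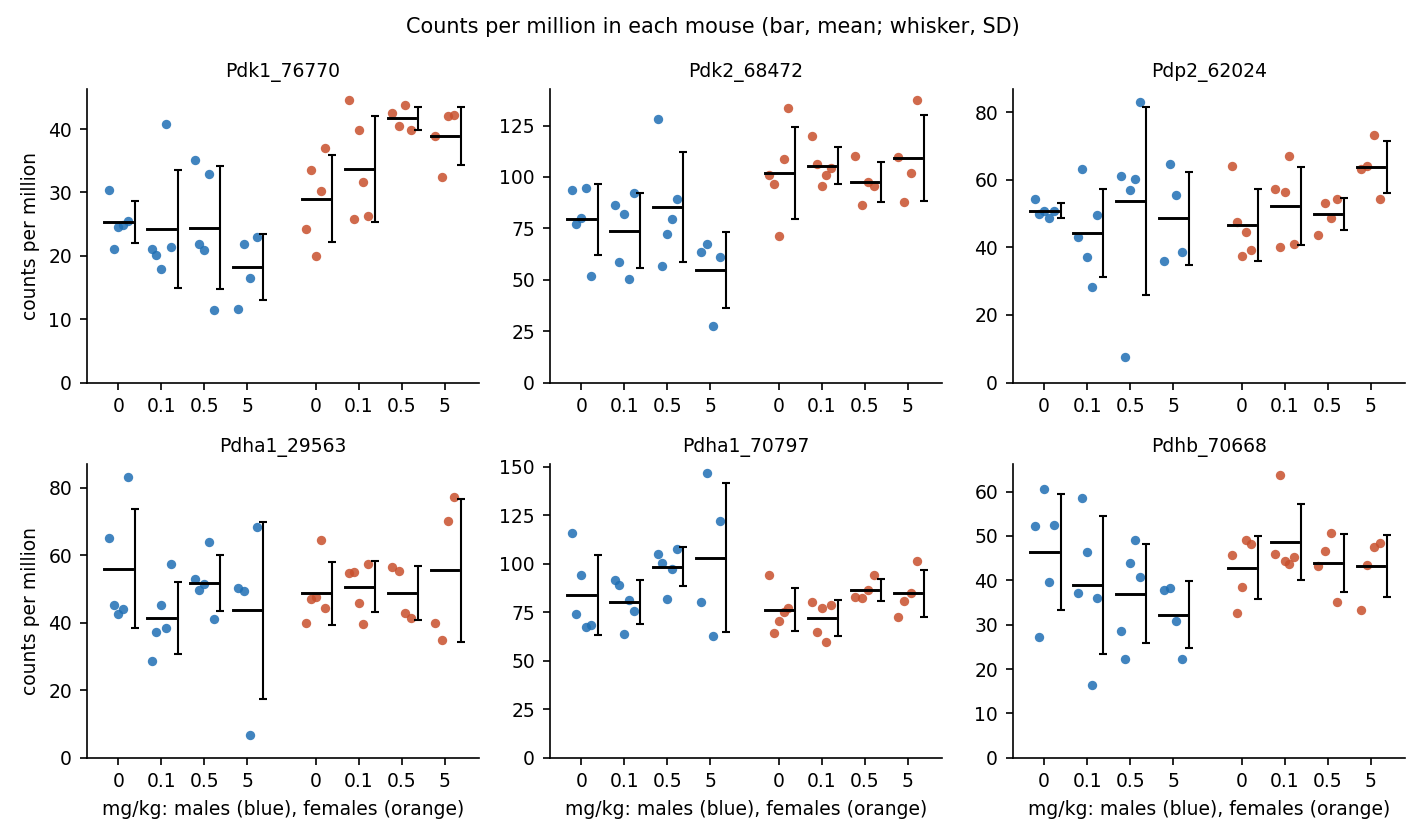
CPM in each mouse (vertical axes) for the 6 other well-read probes (Pdk1, Pdk2, Pdp2, 2 of Pdha1, Pdhb), males in blue and females in orange by dose, with a bar at the group mean and a whisker of 1 SD. All axes start at 0. At 5 mg/kg the male values lie low within or below the control range for Pdk2, Pdk1 and Pdhb, and 1 male of low depth sets the lowest point for Pdk2 (27.4 CPM) and for Pdha1_29563 (6.75 CPM).

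**Figure D3:**
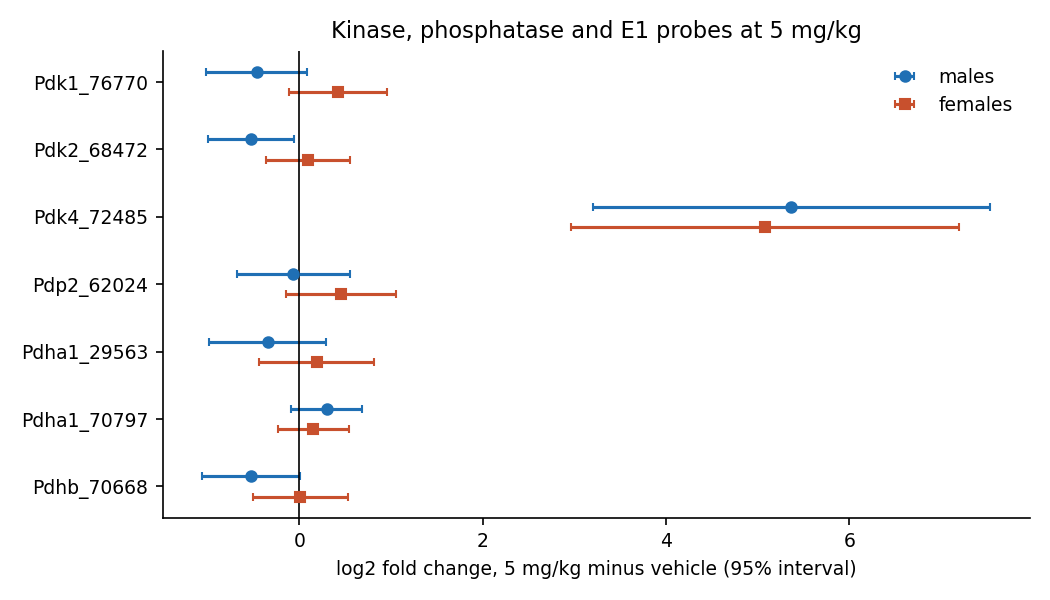
Log2 fold change at 5 mg/kg against vehicle (horizontal axis) for the 7 well-read member probes, males as blue circles and females as orange squares, with 95% intervals from edgeR that are not adjusted for the number of probes. Pdk4 stands at 5.37 and 5.08, while every other probe lies between -0.53 and 0.45.

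The remaining subunits of the complex showed 1 call by edgeR at 5 mg/kg, in females, where 2.26% of all probes were called higher. Dlat, the E2 core that carries the acetyl group, rose in high-dose females by 0.90 (SE 0.25, edgeR adjusted p = 0.027). Its mean was 22.6 ± 3.8 CPM in the 5 controls and 42.3 ± 9.8 CPM in the 4 dosed females (SD). In males it stood at 36 and 35.3 CPM (-0.02, adjusted p = 0.982), and the interaction was not called (-0.92, SE 0.35, adjusted p = 0.344). Dld, the E3 dehydrogenase, Pdhx, which anchors E3, and Pdpr, the regulatory partner of Pdp1, were not called in either sex by edgeR, although Pdpr reached a p below 0.05 before adjustment in both and was called by DESeq2 in females. Their differences lay between -0.50 (Pdpr in females, adjusted p = 0.168) and 0.22 (Pdhx in females). The median over the 4 genes was -0.19 in males and 0.10 in females, beside -0.12 and -0.01 over all probes.

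The 8 genes listed for the sister complexes serve the oxidation of branched-chain keto acids, 2-oxoglutarate and 2-oxoadipate by the same chemistry. By edgeR, males at 5 mg/kg had 2 calls up and 2 down and females 1 up. Over all probes, edgeR called 4.21% up and 8.49% down in males, and 2.26% each way in females. DESeq2 also called Dhtkd1 lower in females. Dlst, the E2 core of 2-oxoglutarate dehydrogenase, rose in both sexes, by 0.42 (adjusted p = 0.0436) in males and 0.55 (adjusted p = 0.00895) in females. Bckdk, the sister kinase that switches off branched-chain keto acid oxidation, rose in males by 1.89 (SE 0.65, adjusted p = 0.0599) from 2.88 to 10.8 CPM and stood at -0.09 in females. Its male readings rest on 7 to 39 counts a mouse in controls and 11 to 165 at 5 mg/kg (SD 7.91 CPM). The interaction for Bckdk was not called (1.98, SE 0.91, edgeR adjusted p = 0.422). Ppm1k, the phosphatase that opposes it, fell in males by 0.74 (adjusted p = 0.0305), and so did Dbt, the E2 core of that complex, by 1.04 (adjusted p = 0.0503). The list's median was -0.14 in each sex.

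Of 11 genes that supply or divert pyruvate, edgeR called 2 higher and 3 lower in males at 5 mg/kg, and 1 higher and 1 lower in females. Over all probes, it called 4.21% higher and 8.49% lower in males, and 2.26% each way in females. In males DESeq2 called 2 higher (Me1 and Slc16a1) and 2 lower (Ldha and Pklr). In females it called 2 higher (Ldha and Me1) and 2 lower (Gpt and Pklr). Me1, the malic enzyme that makes pyruvate from malate, rose by 2.29 (adjusted p = 1.9e-08) in males and 1.89 (adjusted p = 1.36e-06) in females. Pklr, the pyruvate kinase of liver that ends glycolysis, fell by 2.22 (adjusted p = 0.00261) in males and by 1.93 (adjusted p = 0.0123) in females. Slc16a1, a carrier of lactate and pyruvate, rose by 1.67 (adjusted p = 3.675e-06) in males and stood at 0.41 in females (adjusted p = 0.565). Its interaction was not called (1.26, SE 0.34, edgeR adjusted p = 0.106).

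Ldha, which interconverts pyruvate and lactate, differed between the sexes in its change. Ldha fell by 0.73 in males (edgeR adjusted p = 0.0091), from 208 ± 18 to 126 ± 20 CPM (SD, n = 5 and 4). In females it stood at 0.50, not called by edgeR (adjusted p = 0.16) but called higher by DESeq2. The interaction was -1.23 (SE 0.26, edgeR adjusted p = 0.0157). The median over the 11 genes was -0.27 in males and -0.11 in females. Of the 6 tested genes for lipoate and thiamine supply and of the 3 for use of acetyl-CoA, 0 were called in either sex by edgeR. Before adjustment, p was below 0.05 for 1 of the 6 in females and for 2 of the 3 in males, and DESeq2 called as many. Over all probes, edgeR gave such a p to 12.3% in females and 23.3% in males. The nearest were Slc19a2, a thiamine transporter, in females (-0.85, adjusted p = 0.104) and Slc25a1, the citrate carrier, in males (-1.57, adjusted p = 0.152). Lipt2, Lias, Cs and Acly had adjusted p from 0.191 to 1.

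Among 9 genes listed as regulators of the pyruvate dehydrogenase kinases, edgeR called 2 lower in males and 1 lower in females at 5 mg/kg. Over all probes, it called 8.49% lower in males and 2.26% in females. Whether the list differs from that background was not tested. Of 9 listed, edgeR and DESeq2 called 0 higher in either sex, and 0 had a p below 0.05 in that direction before adjustment. Over all probes, edgeR called 4.21% higher in males and 2.26% in females. A count of 0 of 9 is near that background. The medians were -0.42 in males and -0.39 in females. Foxo1, a fasting-activated factor, fell in males by 1.98 (SE 0.54, edgeR adjusted p = 0.014), from 24.7 to 5.85 CPM, and stood at -0.43 in females. Its interaction was not called (-1.55, SE 0.72, edgeR adjusted p = 0.429). The high-dose males spread widely, with an SD of 6.35 CPM and 0 to 102 Foxo1 counts a mouse. Rxra, the partner of PPARα, fell in females by 0.55 (adjusted p = 0.0437) and stood at -0.42 in males, just over the threshold by edgeR (adjusted p = 0.1002) though called lower by DESeq2. DESeq2 called 3 of the 9 lower in males (Rxra, Foxo1 and Esrra) and 1 in females (Rxra). Esrra, an orphan receptor, was also called lower in males, on 0 counts in all 4 high-dose mice and at most 22 in a control. Ppara itself was not called (-0.58, adjusted p = 0.116, for males and 0.29, adjusted p = 0.824, for females).

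Targets of PPARα, by contrast, rose with Pdk4. Of 12 listed genes, edgeR called 9 higher in males and 8 in females and 0 lower at 5 mg/kg, with 0 lower by DESeq2 or before adjustment, and with medians of 2.09 and 1.54. Over all probes, edgeR called 4.21% higher and 8.49% lower in males, and 2.26% each way in females. DESeq2 called 9 of the genes higher in males and 7 in females, with no adjusted p for 1 and 2 of them. At 0.5 mg/kg edgeR already called 6 higher in males and 4 in females, where it called 0.382% and 0.108% of all probes higher. DESeq2 called 7 and 3 higher at 0.5 mg/kg, with no adjusted p for 1 and 3 of the genes. Ehhadh, the bifunctional enzyme of peroxisomal β-oxidation, stood at 3.21 (adjusted p = 6.44e-11) for males and 2.19 (adjusted p = 4.2e-06) for females at that dose, and at 5.51 and 5.03 at 5 mg/kg. Cyp4a10, a fatty acid hydroxylase, rose by 4.53 and 2.70 at 0.5 mg/kg and by 6.47 and 4.38 at 5 mg/kg in males and females. Plin2, a coat protein of lipid droplets, rose by 2.45 in males and by 1.76 in females at the highest dose. Ehhadh had 1537 to 4720 counts in each control mouse, whereas Pdk4 had 0 to 27. The readings of Pdk4 at the lower doses are thus less precise than those of Ehhadh. Vnn1, a listed target, was also sparse, with a mean of 0.285 CPM in control males against 0.746 CPM for Pdk4. Vnn1 was called in males at 0.5 mg/kg (4.23, SE 0.91, edgeR adjusted p = 0.0166), where Pdk4 stood at 2 (SE 0.98), uncalled. In females at that dose Vnn1 was not called (2.81, edgeR adjusted p = 0.458). Fgf21, at 1.18 CPM in control males, was not called in males either (-0.41). The part of sparse counts in the missing call of Pdk4 was not tested.

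**Figure D4:**
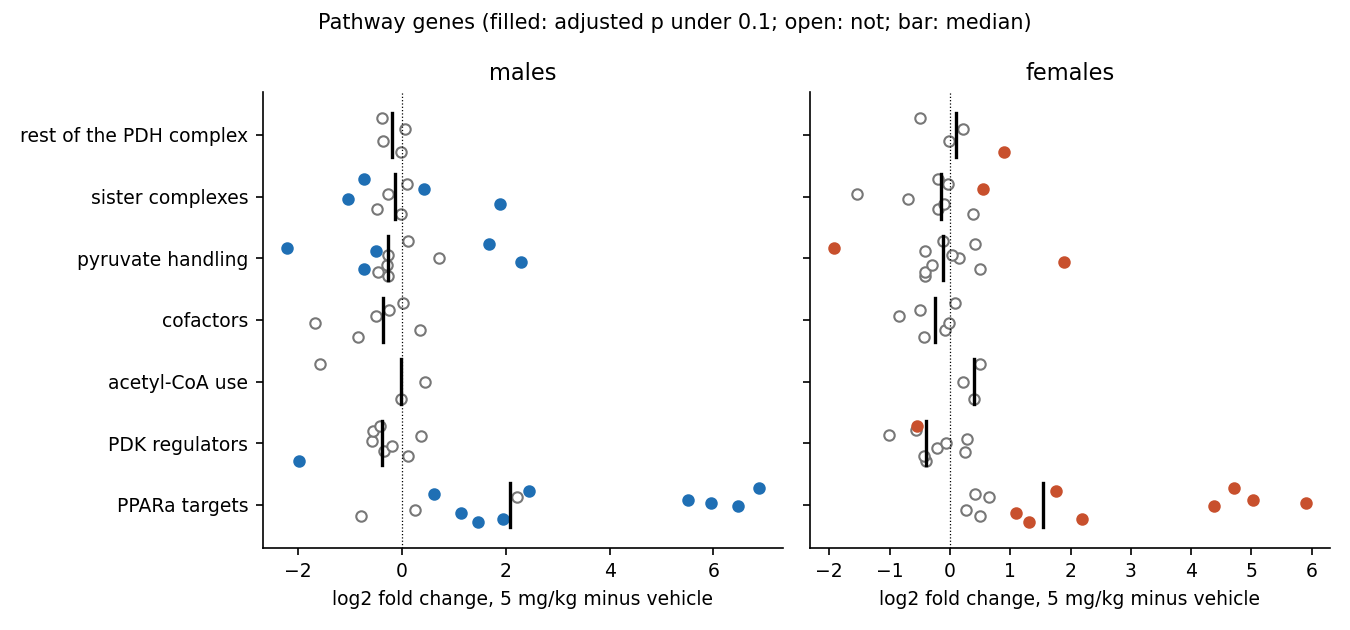
Log2 fold change at 5 mg/kg against vehicle (horizontal axis) of each tested gene in 7 lists around the pyruvate dehydrogenase complex (rows), males on the left and females on the right, filled where the edgeR adjusted p was below 0.1, with a bar at the median of the genes drawn. Esrra in males is left out, since all high-dose males had 0 counts. Most PPARα targets lie to the right in both sexes, with Angptl4 to the left in males, and the lists around pyruvate spread to both sides of 0.

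The probes whose 8 group means of log2 CPM followed those of Pdk4 most closely, among 7399 probes of at least moderate level, were 2 probes of Acot1 and that of Ehhadh. The root mean square difference between centred group means was 0.45 for Acot1_66807, 0.47 for Ehhadh and 0.55 for Acot1_80134. Acot1, a cytosolic acyl-CoA thioesterase, at 5 mg/kg rose by 4.78 (males) and 4.80 (females) with the first probe. It has close paralogs that a probe may share. This likeness is a description over 8 groups whose spread comes mainly from the 2 groups at 5 mg/kg.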

How the data were processed

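Liver sections of male and female CD1 mice at 4 doses of HFPO-DA were read by TempO-Seq. The authors demultiplexed with bcl2fastq 2.17.1.14, aligned reads to the probe set with Bowtie, removed 3 of 40 mice of low quality and deposited raw counts per probe for 37, without normalization. The genome build is not given in the sources used here. Coordinates are GENCODE M21 (GRCm38) by symbol.

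The quasi-likelihood test of edgeR 4.0.16 (R 4.3.3) was run on these counts after filterByExpr over the 8 groups and TMM normalization, with 1 mean per group and all 37 mice in the fit. Benjamini-Hochberg adjustment covered 18570 probes. The fit was tested on simulated data. DESeq2 1.42.0, its size factors, other filters, a robust fit, each sex apart, probes summed per gene, a stricter threshold and leaving out each mouse were alternatives. Leaving out males under 5000000 counts was chosen after seeing the data.

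The members and gene lists were chosen with earlier results of these data known. Named were all members, the rest of the complex, and up to 4 genes per list with the smallest p at 5 mg/kg in either sex, on each gene's most counted probe, some of which are not reported here. The labels do not number mice across groups. No 2 libraries were alike (highest correlation of log2 CPM 0.949), and separate mice are the replicates. CPM precision is limited by counts, so Pdk3 and Pdp1 are given as counts.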

Additional observations from a re-analysis of the deposited data

Results flagged for a closer look

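In 69 sets of 4 or 5 mice and 1 probe, 10 had a mouse that stood apart from its group by Dixon's criterion. Chance flags about 1 in 20 sets of normally distributed values. A lone counted mouse among mice at 0 is always flagged, so 10 of 69 cannot be set against that rate. For Pdk4 these were female 3 at 5 mg/kg, at 70.1 CPM where the next read 16.5, and male 1 at 0.1 mg/kg, at 6.46 CPM, above the other males of that dose. For Pdk2 it was male 3 at 5 mg/kg, at 27.4 CPM where the next read 61.2, in the library of lowest depth. Pdk1 stood apart in male 4 at 0.1 mg/kg (40.8 CPM on a total of 4012015 counts), and Pdhb in female 2 at 0.1 mg/kg (63.8 CPM). The other 5 sets lie near the floor of counting. They are Pdk3 in male 5 at 0.1 mg/kg (1.17 CPM), male 2 at 5 mg/kg (3.09 CPM) and female 4 at 0.5 mg/kg (3.33 CPM), and Pdp1 in control male 2 (0.908 CPM) and control female 5 (0.749 CPM).

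The change of Pdk1 at 5 mg/kg differed between the sexes by -0.89 on the log2 scale (edgeR adjusted p = 0.393), lower in males and higher in females, with a p below 0.05 only before adjustment.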

How the results depend on the processing

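The rise of Pdk4 at 5 mg/kg was called under every alternative run and without any 1 mouse, from 5.01 to 6.42 in males and from 4.00 to 6.21 in females. Member probes called in males at 5 mg/kg numbered 1, but 2 without the males under 5000000 counts, where Pdha1_70797 joined on 2 high-dose males, and 1 to 2 with 1 mouse left out, where Pdk2 joined. For 5 against 0.5 mg/kg in males the count was 1, against 2 with DESeq2, with a mean of at least 10 counts and with the robust fit, 0 with each sex fitted apart, and 1 to 2 with 1 mouse left out. In females it was 1, against 0 at an adjusted p below 0.05 and with the robust fit, and 0 to 1 with 1 mouse left out. DESeq2 gave Pdk4 no adjusted p there. The other counts of member probes were 1 for females at 5 mg/kg and 0 elsewhere under all alternatives.

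Values that changed sign were all uncalled. Without the shallow males, Pdha1_29563 in males was 0.0304 and Pdhb in females -0.00639. Pdp2 in males was 0.037 with DESeq2 size factors and also with DESeq2. With 1 mouse left out, the values ranged from -0.26 to 0.0258 for Pdp2 in males, from -0.0118 to 0.34 for Pdha1_29563, -0.0728 to 0.12 for Pdhb and -0.035 to 0.21 for Pdk2 in females at 5 mg/kg, from -0.44 to 2.31 for Pdk4 in males at 0.1 mg/kg and from -0.86 to 1.37 for its interaction at 5 mg/kg. The cause was not tested. Over all probes, calls at 5 mg/kg against vehicle ranged from 1120 to 2830 in males (2359 as reported) and from 635 to 2093 in females (839 as reported).

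No paired analysis was possible because the labels give no replicate numbers shared between groups. The shallowest libraries were male, which widens counting error there, and Pdk3 and Pdp1 were too sparse for any.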
